A study of Mus musculus with 2 samples.

Results

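The 10 genes described here make up the local glucocorticoid system of a tissue. They are the receptors Nr3c1 and Nr3c2, the receptor-bound immunophilins Fkbp4 and Fkbp5, the prereceptor enzymes Hsd11b1, Hsd11b2 and H6pd, and the steroid-induced genes Tsc22d3, Sgk1 and Errfi1. They were chosen by symbol as a pathway, with no threshold on their values, from 55536 annotated genes. Earlier results of these data were known at that choice. The symbols were read from the annotation names in the transcript tables. The measurements were total RNA sequencing of adrenal gland tissue of male mice aged 25 days. The strain was B6CASTF1/J, the first generation of a cross between classical laboratory and wild-derived mice. There was 1 group of 2 libraries, for which the labels give no treatment, each made from 300 ng of RNA with ribosomal RNA reduced and ERCC spike-in transcripts added. Biosample labels give each replicate its own male, whereas library labels give 1 male to both, and the donor label is shared. Differences between the libraries may therefore be technical, and they compare these libraries, not conditions.

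Glucocorticoids are made in the adrenal cortex under the control of corticotropin and act through an intracellular receptor held ready by chaperones. Enzymes of the endoplasmic reticulum decide how much active steroid reaches that receptor, and the mineralocorticoid receptor binds the same steroid where no enzyme inactivates it. In the nucleus the receptor binds a palindrome of short DNA motifs and switches on genes that restrain the response, so the tissue that makes the hormone also reads it.

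Each library was quantified in a first and a second way, and levels are given in TPM, a share of all transcripts scaled for length, of the first quantification unless stated. Replicate 1 held 34987819 expected counts on annotated genes and replicate 2 held 34835147. The adrenal label was borne out by its markers: the 7 cortex genes summed to 12342 TPM in replicate 1, against 6802 TPM in replicate 2, the 4 zona glomerulosa genes to 714 and 437 TPM, and the 5 medulla genes to 1596 and 1084 TPM. Hsd3b1 (3405 and 2015 TPM) and Star (3265 and 1840 TPM), which serve steroid synthesis, led the cortex list. Both libraries also held transcripts of other tissues. The 8 liver genes summed to 29.4 TPM in replicate 1, against 21310 TPM in replicate 2, led by Alb, serum albumin, at 16.3 and 11949 TPM. All 8 were detected in replicate 2, none was at 0 in replicate 1, and 6 reached 1 TPM in both libraries. The 6 skeletal muscle genes summed to 1196 TPM in replicate 1, against 1.81 TPM in replicate 2, led by Acta1 at 425.6 and 0.07 TPM. Fat was present in both libraries: the 6 white adipocyte genes summed to 2316 TPM in replicate 1, against 1935 TPM in replicate 2, and the 4 brown adipocyte genes to 1169 and 802 TPM. The 5 macrophage genes summed to 60.1 TPM in replicate 1, against 83.1 TPM in replicate 2. Of the 8 kidney genes none reached 1 TPM in both libraries, and 5 were at 0 in each. In bulk tissue, fewer cells of a type and less RNA per cell cannot be told apart.

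**Figure D1:**
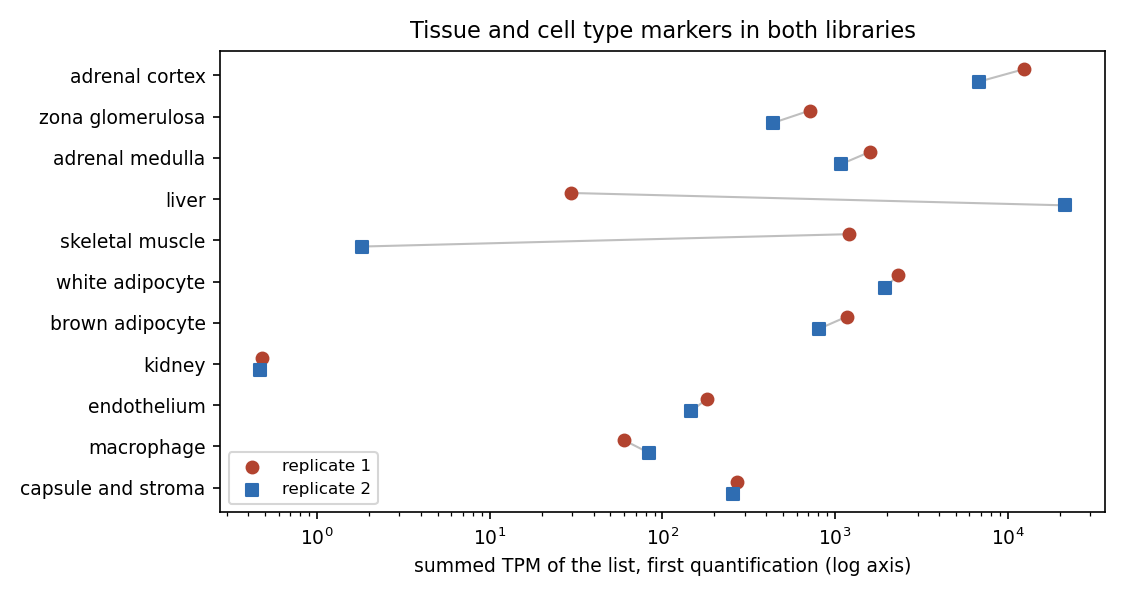
Summed TPM of each marker list on a log axis, first quantification, as circles for replicate 1 and squares for replicate 2 (1 library each). Each adrenal list differs by less than 2-fold between the libraries, the liver list sums to 29.4 TPM in replicate 1 against 21310 TPM in replicate 2, and the muscle list to 1196 TPM against 1.81 TPM.

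The DNA just before the transcription starts was searched for letters of the receptor's motif. Windows of 250 bases before each RefSeq start (GRCm38.p6) were searched on both strands for AGAACA or its complement TGTTCT, the 6-letter unit that steroid receptors of this class bind. The 15-letter palindrome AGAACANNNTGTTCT, which holds this unit on each side of a spacer, was searched with at most 2 mismatches. TATAAA, the letters of the TATA box, and TGACG, the unit of the cyclic AMP response element, were also searched. The search covered 16 RefSeq windows of 8 of the 10 genes, all but Nr3c1 and Hsd11b2. The windows below are those that differ most in these letters or that stand at the starts the results turn on, written 5′ to 3′ in the sense of the gene, with matches in capitals. The Sgk1 windows are at chr10:21978422-21978671, chr10:21993640-21993889 and chr10:21994416-21994665 on the plus strand, and their starts are those of transcripts Sgk1-213, Sgk1-202 and Sgk1-201.
Sgk1 before the Sgk1-213 start: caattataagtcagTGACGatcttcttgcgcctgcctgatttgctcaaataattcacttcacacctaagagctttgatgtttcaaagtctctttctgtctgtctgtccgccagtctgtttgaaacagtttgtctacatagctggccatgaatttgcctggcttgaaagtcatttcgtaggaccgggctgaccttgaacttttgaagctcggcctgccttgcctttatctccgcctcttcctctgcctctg
Sgk1 before the Sgk1-202 start: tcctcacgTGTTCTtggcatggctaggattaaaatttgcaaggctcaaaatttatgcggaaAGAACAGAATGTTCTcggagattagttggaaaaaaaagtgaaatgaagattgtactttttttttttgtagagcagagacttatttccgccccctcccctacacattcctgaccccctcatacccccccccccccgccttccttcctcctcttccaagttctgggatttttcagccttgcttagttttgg
Sgk1 before the Sgk1-201 start: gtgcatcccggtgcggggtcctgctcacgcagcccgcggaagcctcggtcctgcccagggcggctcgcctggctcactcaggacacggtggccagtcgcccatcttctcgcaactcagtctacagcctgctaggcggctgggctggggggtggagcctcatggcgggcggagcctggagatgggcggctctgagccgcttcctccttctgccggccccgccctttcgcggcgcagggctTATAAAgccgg
The Tsc22d3 window at chrX:140600523-140600772 and the Fkbp5 window at chr17:28486150-28486399 lie on the minus strand, and the Errfi1 window at chr4:150854820-150855069 on the plus strand. The Hsd11b1 window at chr1:193242361-193242610 and the H6pd window at chr4:150003237-150003486 lie on the minus strand. RefSeq and GENCODE starts can differ: the Tsc22d3 window overlaps the first bases of Tsc22d3-203 in GENCODE, and the whole Hsd11b1 window lies downstream of the GENCODE start of Hsd11b1-201, at position 193242629.
Tsc22d3: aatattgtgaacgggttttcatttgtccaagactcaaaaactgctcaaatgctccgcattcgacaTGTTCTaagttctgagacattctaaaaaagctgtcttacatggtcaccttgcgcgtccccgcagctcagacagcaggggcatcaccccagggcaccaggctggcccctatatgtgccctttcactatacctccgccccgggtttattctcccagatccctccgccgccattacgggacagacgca
Fkbp5: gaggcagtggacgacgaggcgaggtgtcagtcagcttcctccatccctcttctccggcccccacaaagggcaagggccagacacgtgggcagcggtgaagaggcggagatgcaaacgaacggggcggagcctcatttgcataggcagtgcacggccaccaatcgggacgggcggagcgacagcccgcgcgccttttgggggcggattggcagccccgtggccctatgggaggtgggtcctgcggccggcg
Errfi1: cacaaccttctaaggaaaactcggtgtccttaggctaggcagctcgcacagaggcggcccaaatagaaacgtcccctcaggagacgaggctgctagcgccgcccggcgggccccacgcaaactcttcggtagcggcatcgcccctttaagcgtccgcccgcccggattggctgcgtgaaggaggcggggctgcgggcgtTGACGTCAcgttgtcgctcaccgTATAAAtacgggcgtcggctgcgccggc
Hsd11b1: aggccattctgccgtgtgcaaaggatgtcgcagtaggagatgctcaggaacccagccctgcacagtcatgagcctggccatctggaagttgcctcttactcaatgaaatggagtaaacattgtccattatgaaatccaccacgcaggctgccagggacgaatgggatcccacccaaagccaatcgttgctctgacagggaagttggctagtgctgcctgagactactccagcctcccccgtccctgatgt
H6pd: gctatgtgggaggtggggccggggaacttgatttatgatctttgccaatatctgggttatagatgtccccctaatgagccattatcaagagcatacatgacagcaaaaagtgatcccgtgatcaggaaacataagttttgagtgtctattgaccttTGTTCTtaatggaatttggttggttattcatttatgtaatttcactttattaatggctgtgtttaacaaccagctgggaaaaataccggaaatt

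The Sgk1-202 window was the richest in receptor letters. It held the 15-letter palindrome with 0 mismatches, starting 189 bases before the transcription start, and a further TGTTCT that began 242 bases before it. Over all 32807 RefSeq windows of this length, 3 held the palindrome without a mismatch (0.00914%), those of Acnat2, Gm35041 and Sgk1. With at most 2 mismatches 1.55% of all windows held it, against 2 of the 16 windows here, both of Sgk1. The 6-letter unit stood in 5 of the 16 windows (3 of Sgk1, 1 of Tsc22d3 and 1 of H6pd) and in 16.1% of all windows. The Errfi1 window held neither AGAACA nor TGTTCT, but held TGACG and its complement, overlapping as TGACGTCA, from 51 bases before the start and TATAAA from 28 bases before it. TATAAA was found in 3 of the 16 windows and in 12.4% of all, and TGACG in 4 of the 16 and in 17.8% of all. The Errfi1 window also held 30 CpG dinucleotides, against a median of 6 over all windows. The Fkbp5 window had 23 CpG and none of these 4 motifs, and the Hsd11b1 window none either. These are matches of letters in the reference genome, and windows of 1 gene are not independent of each other. DNA outside the windows was not searched, so a window without a motif does not show that its gene lacks one.

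The receptors came first: both libraries held more glucocorticoid than mineralocorticoid receptor mRNA. The part of the other tissues in these levels was not tested. Nr3c1, the glucocorticoid receptor (ENSMUSG00000024431.15, chromosome 18, 39410545 to 39519421, minus strand, mm10), was at 12.3 TPM in replicate 1, against 17.6 TPM in replicate 2, or 14.96 ± 3.71 TPM (SD, n = 2). Nr3c2, the mineralocorticoid receptor (ENSMUSG00000031618.13, chromosome 8, 76899442 to 77245012, plus strand), was at 2.30 and 2.85 TPM, or 2.58 ± 0.389 TPM. The log2 ratio of Nr3c1 over Nr3c2 was 2.42 in replicate 1, against 2.62 in replicate 2, so that the glucocorticoid receptor was 5.36-fold and 6.17-fold the higher. In the second quantification the mean of this log2 ratio was 2.97. Among the 22015 nuclear protein-coding genes Nr3c1 ranked 4679th and Nr3c2 10912th by mean TPM, and 11914 of these genes were detected at 1 TPM or more in both libraries.

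Nr3c1 was divided among several annotated starts, as is known of this gene, whose alternative first exons are not translated. Starts within 300 bases of a neighbour were joined, which left 6 start regions for its 9 transcripts. The start of Nr3c1-203 carried 38.2% of the gene's TPM in replicate 1, against 43.6% in replicate 2, that of Nr3c1-202 and Nr3c1-204 carried 32.7% and 29.6%, and that of Nr3c1-201 and Nr3c1-208 carried 25.6% and 19.8%. The second quantification gave these regions 23.4% and 13.9%, 31.1% and 43.0%, and 23.2% and 21.9%. No region held over 50% of the gene in either quantification, and which of them led differed between the quantifications. For Nr3c2, Nr3c2-208, a transcript annotated as a target of nonsense-mediated decay, held 35.7% of the gene's TPM in replicate 1, against 22.4% in replicate 2, and 28.1% and 21.5% in the second quantification.

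Of the immunophilins that ride on the receptor complex, the one that favours signalling exceeded the one that restrains it. Fkbp4, which couples the receptor to nuclear transport (ENSMUSG00000030357.10, chromosome 6, 128429735 to 128438677, minus strand), was at 84.7 TPM in replicate 1, against 73.6 TPM in replicate 2, or 79.2 ± 7.83 TPM. Fkbp5, which lowers the receptor's affinity for hormone and is itself switched on by the receptor (ENSMUSG00000024222.17, chromosome 17, 28399094 to 28517527, minus strand), was at 27.6 and 29.1 TPM, or 28.4 ± 1.06 TPM. In TPM, Fkbp5 had the smallest SD relative to its mean of the 10 genes. As a ratio of scaled counts, given below, Fkbp4 differed less between the libraries than Fkbp5. The log2 ratio of Fkbp5 over Fkbp4 was -1.62 in replicate 1 and -1.34 in replicate 2, and its mean was -1.48 in the first and -1.49 in the second quantification. Fkbp5 was thus lower than Fkbp4 in both libraries and both quantifications. The largest share of Fkbp5 was assigned to the start behind the window printed above, that of Fkbp5-201. It held 68.3% of the gene's TPM in replicate 1, against 71.7% in replicate 2, and 50.5% and 49.4% in the second quantification.

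The prereceptor enzymes were uneven: the activating pair was high and the inactivating enzyme was near the limit of detection. Hsd11b1, the reductase that regenerates corticosterone from its inactive keto form (ENSMUSG00000016194.14, chromosome 1, 193221634 to 193264075, minus strand), was at 37.1 TPM in replicate 1, against 130.8 TPM in replicate 2, or 84.0 ± 66.3 TPM. H6pd, which makes the NADPH that this reductase uses inside the endoplasmic reticulum (ENSMUSG00000028980.14, chromosome 4, 149979475 to 150009023, minus strand), was at 46.6 and 74.9 TPM, or 60.8 ± 20.05 TPM. Hsd11b2, the dehydrogenase that inactivates corticosterone and shields the mineralocorticoid receptor in kidney (ENSMUSG00000031891.6, chromosome 8, 105518755 to 105523988, plus strand), had 8 counts in replicate 1, against 15 counts in replicate 2. Its level was 0.13 TPM in replicate 1 (95% exact Poisson counting interval 0.0561 to 0.256) and 0.25 TPM in replicate 2 (0.140 to 0.412), in a tissue sample whose kidney markers were at or near 0.

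Hsd11b1 therefore exceeded Hsd11b2 by a log2 ratio of 8.16 in replicate 1, against 9.03 in replicate 2, which is 285-fold and 523-fold. In the second quantification Hsd11b1 was at 79.7 and 265 TPM and Hsd11b2 at 0.290 and 0.387 TPM. The log2 ratio of H6pd over Hsd11b1 was 0.33 in replicate 1 and -0.80 in replicate 2, and its mean of -0.24 was smaller than its SD of 0.80. In the second quantification it was -0.07 in replicate 1 and -1.16 in replicate 2, so which of the activating pair was the higher in replicate 1 depended on the quantification, while Hsd11b1 was the higher in replicate 2 in both. The gap between the libraries was wider for Hsd11b1 than for H6pd, and the liver list, whose tissue is a known site of Hsd11b1, was at 29.4 TPM in replicate 1, against 21310 TPM in replicate 2. Its part in the difference was not tested. Fat, another known site of Hsd11b1, had marker sums that were higher in replicate 1, though not every gene of its lists was. The part of fat was not tested either.

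Where Hsd11b1 transcripts began was not settled by these tables. The first quantification placed most of the gene on Hsd11b1-205, which starts farthest upstream, with 80.7% in replicate 1, against 62.2% in replicate 2. It placed 18.8% and 26.6% on Hsd11b1-201, whose GENCODE start lies just upstream of the window printed above. The second placed 4.85% and 2.50% on Hsd11b1-205 and 32.5% and 42.7% on Hsd11b1-201. H6pd showed the same kind of disagreement: H6pd-202 held 65.3% in replicate 1, against 72.8% in replicate 2, in the first quantification, and 21.02% and 25.8% in the second, which gave H6pd-201 65.6% and 56.1%. The order of the 10 gene totals by mean TPM was nevertheless the same in both quantifications.

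The steroid-induced genes differed in how steady they were. Tsc22d3, a leucine zipper protein that restrains inflammatory transcription (ENSMUSG00000031431.13, chromosome X, 140539528 to 140600659, minus strand), was at 40.0 TPM in replicate 1, against 28.9 TPM in replicate 2, or 34.4 ± 7.83 TPM. Sgk1, a kinase that raises sodium transport (ENSMUSG00000019970.15, chromosome 10, 21882184 to 21999903, plus strand), was at 42.9 and 26.2 TPM, or 34.5 ± 11.8 TPM. Errfi1, an inhibitor of the epidermal growth factor receptor (ENSMUSG00000028967.10, chromosome 4, 150853919 to 150868892, plus strand), was at 9.03 and 98.2 TPM, or 53.6 ± 63.1 TPM. Errfi1 was the least steady of the 10 genes and had an SD above its mean, its high value standing in the library with 21310 TPM of liver markers, whose part was not tested, while Tsc22d3 and Sgk1 were the higher in replicate 1.

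**Figure D2:**
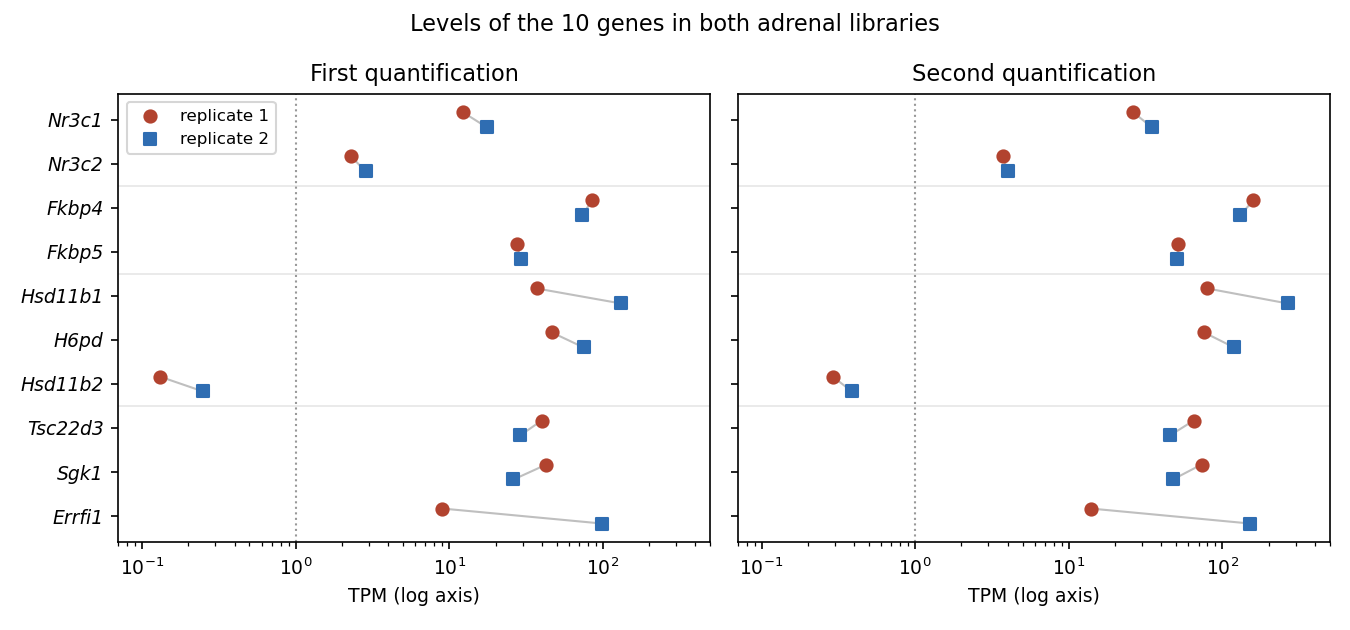
TPM of the 10 genes on a log axis in the first quantification (left) and the second (right), as circles for replicate 1 and squares for replicate 2, with a dotted line at the detection threshold of 1 TPM. Genes run from receptors through immunophilins and enzymes to steroid-induced genes, and Hsd11b1 and Errfi1 show the widest gaps among the 9 detected genes.

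Both quantifications divided Sgk1 and Tsc22d3 among more than 1 annotated start. For Sgk1, the start of Sgk1-210 and Sgk1-213 carried 41.5% of the gene's TPM in replicate 1, against 35.7% in replicate 2, and 41.1% and 33.1% in the second quantification, so both quantifications gave it a similar share. The rest was divided differently. The first quantification gave the region of Sgk1-201 47.8% and 47.5% and the start of Sgk1-202, behind the window with the full palindrome, 4.15% and 7.87%. The second gave the region of Sgk1-201 23.1% and 32.5% and Sgk1-202 28.4% and 24.2%. How much of Sgk1 came from the start behind the palindrome thus differed between the quantifications. The start farthest upstream, that of Sgk1-204, carried no TPM in replicate 1, against 0.04 TPM in replicate 2.

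Tsc22d3-201 led its gene in both libraries and both quantifications. It carried 70.9% of the gene in replicate 1, against 63.4% in replicate 2, and 73.1% and 57.1% in the second quantification. Tsc22d3-203, which starts far upstream, where the window printed above lies, carried 17.3% and 20.4%, and 25.3% and 28.8% in the second. The share of Tsc22d3-202 was less settled, at 11.3% in replicate 1 and 13.2% in replicate 2 in the first quantification and at 0.482% and 10.2% in the second. The start of Errfi1-201, behind the window with TATAAA, carried 100% of Errfi1 in replicate 1, against 99.9% in replicate 2, in the first quantification. The second placed 55.6% and 85.2% there and the remainder on Errfi1-202, which starts upstream.

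**Figure D3:**
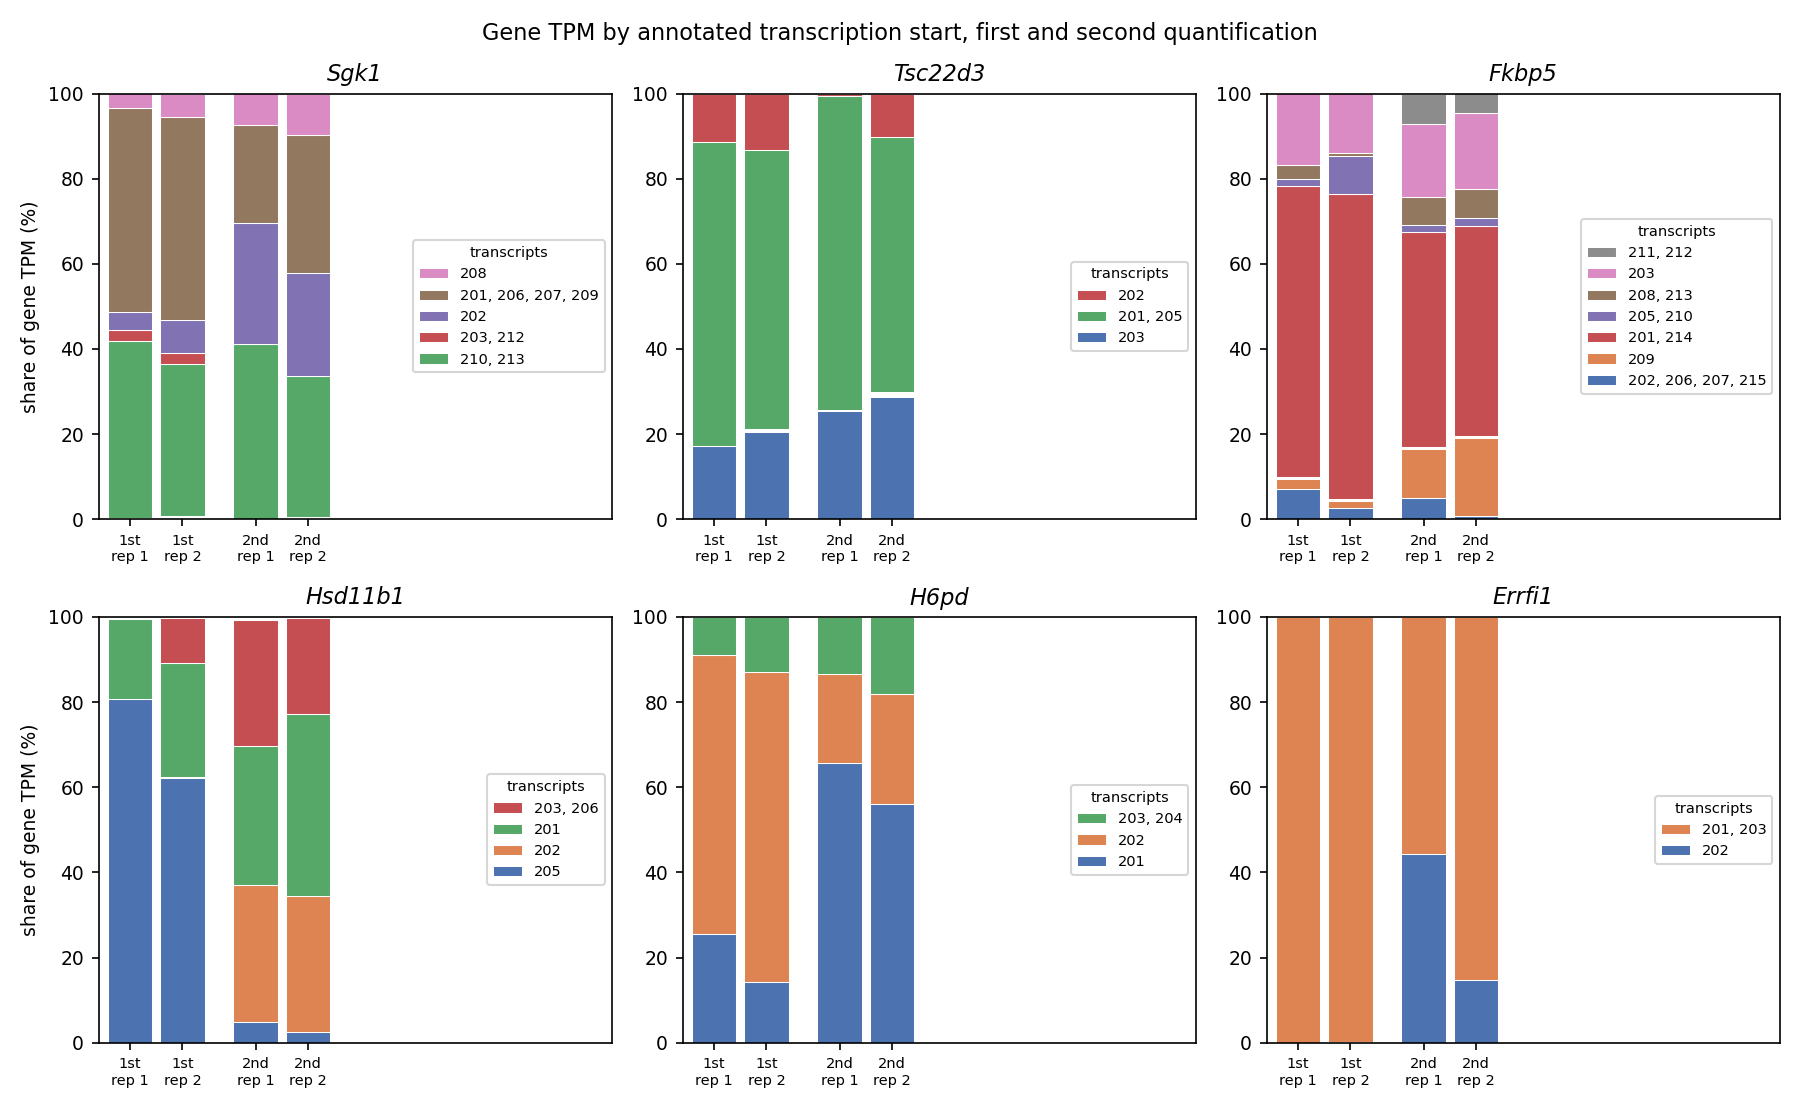
Share of each gene's TPM (percent) by annotated start region, for replicate 1 and replicate 2 in the first (1st) and second (2nd) quantification, with the start farthest upstream at the bottom and transcripts named by their number. Start regions under 2% in every bar are left undrawn. The region of Tsc22d3-201 holds the largest share of that gene in every bar, while the Hsd11b1-205 share is 80.7% and 62.2% in the first and 4.85% and 2.50% in the second quantification.

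By mean TPM the order was Hsd11b1, Fkbp4, H6pd, Errfi1, Sgk1, Tsc22d3, Fkbp5, Nr3c1, Nr3c2 and Hsd11b2, in both quantifications. The first 4 overlapped in their values: Hsd11b1 and Errfi1 stood below Fkbp4 in replicate 1 and above it in replicate 2. Sgk1, Tsc22d3 and Fkbp5 could not be ordered either, since Fkbp5 was the lowest of these 3 in replicate 1 and the highest in replicate 2. Nr3c1, Nr3c2 and Hsd11b2 kept the same order among themselves in both libraries, and the values of these 3 did not overlap. The second quantification gave higher TPM to all 10 genes. Its log2 ratio, first over second, ran from -1.16 to -0.62 in replicate 1 and from -1.02 to -0.50 in replicate 2, around medians of -0.78 and -0.73 over all detected nuclear protein-coding genes. All 10 had whole expected counts and a posterior SD of 0 in both libraries, as for genes whose reads were not divided among several. Genes that overlap them on either strand held at most 46 counts in a library.

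Each member was then set between the libraries as a ratio of expected counts, replicate 1 over replicate 2. Library sizes were scaled by TMM, a trimmed mean of ratios over all genes, and a two-sided exact binomial test on counts was adjusted over 19801 genes. The test covers counting error only. Of the 10 genes 8 passed at an adjusted p of at most 0.05, 2 as higher and 6 as lower in replicate 1, but 38.9% of all genes tested passed, 17.6% as higher and 21.3% as lower. Among genes with at least 500 counts in total 54.4% passed, against 8 of the 9 members at that depth. Passing and differing at least 2-fold, which 10.9% of all genes did, was met by Errfi1 and Hsd11b1.

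Errfi1 had 795 counts in replicate 1, against 9089 counts in replicate 2, a log2 ratio of -3.76 (95% counting interval -3.87 to -3.66), or 13.6-fold lower in replicate 1. Of the genes with at least 500 counts in total, 4.12% had a larger ratio in either direction. Hsd11b1 had 1660 and 5839 counts, a log2 ratio of -2.06 (-2.14 to -1.98), or 4.18-fold lower in replicate 1. Both had an adjusted p of at most 1e-300 in the exact binomial test, the smallest written. In the liver list 8 of 8 genes passed as lower in replicate 1, as 21.3% of all genes tested did, with a median log2 ratio of -9.76. The part of the liver list in both results was not tested.

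H6pd, the cofactor partner of Hsd11b1, was also lower in replicate 1, with 6614 counts there and 10118 in replicate 2 and a log2 ratio of -0.86 (-0.91 to -0.82). Both receptors were lower in replicate 1 too, as were the liver list and the macrophage list, and the part of either list was not tested. Of the macrophage list 4 of 5 genes passed as lower, as 21.3% of all genes tested did, with a median log2 ratio of -0.54. Nr3c1 had 1997 and 2711 counts and a log2 ratio of -0.69 (-0.77 to -0.61, adjusted p = 1.64e-58 in the exact binomial test). Nr3c2 had 237 and 364 counts and a log2 ratio of -0.87 (-1.11 to -0.63, adjusted p = 2.90e-12). The counting intervals of the receptors overlapped, and the ratio of Nr3c1 over Nr3c2 given above differed little between the libraries.

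Sgk1 and Tsc22d3 were the genes higher in replicate 1, the library with more of the cortex list and with the muscle transcripts. The part of either was not tested. In the cortex list 7 of 7 genes passed as higher (median log2 ratio 0.63) and in the muscle list 6 of 6 (median 11.53). Of all genes tested 17.6% did. Sgk1 had 2309 counts in replicate 1, against 1455 in replicate 2, a log2 ratio of 0.42 (0.32 to 0.51, adjusted p = 2.38e-17 in the exact binomial test). Tsc22d3 had 2439 and 1741 counts and a log2 ratio of 0.24 (0.15 to 0.33, adjusted p = 7.37e-07). The steroid-induced genes thus did not move together, with Errfi1 going the other way.

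The immunophilins depended on the scaling. Fkbp4 had 6061 counts in replicate 1, against 5159 in replicate 2, and a TMM log2 ratio of -0.02 (-0.07 to 0.04, adjusted p = 0.737 in the exact binomial test). It was higher in replicate 1 when scaled to total counts (0.23) or to spike-in totals (0.35). Fkbp5 had 2614 and 2730 counts and a TMM log2 ratio of -0.31 (-0.39 to -0.23, adjusted p = 3.29e-14), but its ratio did not pass with total counts (-0.07, adjusted p = 0.133) or spike-in totals (0.057, adjusted p = 0.212). These scalings moved the median over all genes to 0.24 and 0.36, and changed the split of all calls. With TMM 3484 genes passed as higher and 4225 as lower in replicate 1. With total counts 55.7% passed, 43.0% as higher and 12.7% as lower, and with spike-in totals 64.1%, 53.3% as higher and 10.8% as lower. The 8 other members kept their direction and their side of the threshold in all 6 alternatives. Hsd11b2, at 8 and 15 counts, had a log2 ratio of -1.15 (-2.60 to 0.17, adjusted p = 0.193), too shallow to tell a difference.

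**Figure D4:**
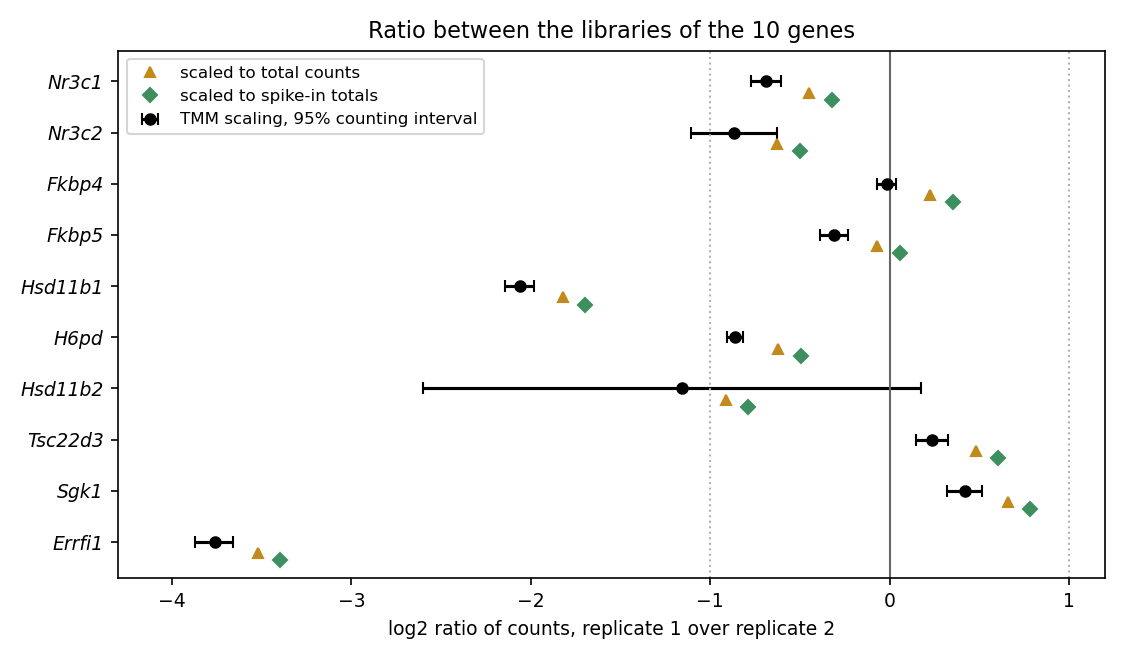
Log2 ratio of counts, replicate 1 over replicate 2 (1 library each), for the 10 genes: black circles with 95% counting intervals for TMM scaling, triangles for total counts and diamonds for spike-in totals, with dotted lines at a 2-fold difference. Errfi1 (-3.76) and Hsd11b1 (-2.06) lie far to the left under every scaling, and Fkbp4 and Fkbp5 cross 0.

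Of 15 chaperones and cochaperones that fold and hold the receptor, all were detected, 8 passed as higher in replicate 1 and none as lower. Of all genes tested 17.6% passed as higher and 21.3% as lower. Among genes with at least 500 counts in total, as each of the 15 had, 54.4% passed in either direction. The median log2 ratio of the 15 was 0.09, against 0.00 over all genes tested. With total counts or spike-in totals all 15 passed as higher, as did 43.0% and 53.3% of all genes. The most abundant were Hspa8 (903 TPM in replicate 1, against 497 TPM in replicate 2), Hsp90ab1 (674 and 504 TPM) and Hsp90aa1 (232 and 158 TPM), with log2 ratios of 0.58, 0.19 and 0.29. Of 13 coactivators and corepressors, 3 passed as higher and 4 as lower, with a median of 0.01. The corepressor Ncor1 was at 66.0 TPM in replicate 1, against 57.5 TPM in replicate 2, and Nrip1 at 29.1 and 23.5 TPM. With spike-in totals 11 of the 13 passed, all as higher, and Ncor1 changed its direction (-0.07 with TMM, 0.30 with spike-in totals).

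Other genes known to be induced by glucocorticoids in many tissues went both ways, as the members did. Of 20, 18 were detected, 7 passed as higher in replicate 1 and 7 as lower, where 17.6% and 21.3% of all genes tested did. The median log2 ratio of the 20 was -0.04. With spike-in totals 13 passed as higher and 3 as lower, where 53.3% and 10.8% of all genes tested did. The most abundant were Glul, glutamine synthetase (393 TPM in replicate 1, against 341 TPM in replicate 2), Pdk4, which spares pyruvate from oxidation (218 and 125 TPM), and Cdkn1c, a brake on the cell cycle (174 and 94.5 TPM). Pdk4 and Cdkn1c were higher in replicate 1 (log2 ratios 0.55 and 0.67), and the small ratio of Glul changed its sign with the scaling (-0.05 with TMM, 0.32 with spike-in totals). Sult1a1, a sulfotransferase, was lower in replicate 1, at 16.4 TPM there and 50.6 TPM in replicate 2, as was Zfp36, which speeds the decay of cytokine mRNAs (3.98 and 7.66 TPM), with log2 ratios of -1.83 and -1.16. The liver list moved the same way (29.4 and 21310 TPM), and its part was not tested.

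The hepatic targets of the receptor were lower in replicate 1, as the liver list was (29.4 and 21310 TPM), whose part was not tested. All 6 passed as lower in replicate 1, as 21.3% of all genes tested did, with a median of -7.71. Tdo2, which opens the tryptophan ring, was at 0.23 TPM in replicate 1, against 235 TPM in replicate 2, Tat, tyrosine aminotransferase, at 0.32 and 74.7 TPM, and Sds, serine dehydratase, at 0.16 and 32.4 TPM. G6pc, the last enzyme of glucose release, was at 0.99 and 14.5 TPM. Pck1, an enzyme of glucose and glycerol synthesis that fat also expresses, was the exception in size: it was at 334 TPM in replicate 1, against 353 TPM in replicate 2, with a log2 ratio of -0.30 that became 0.07 with spike-in totals.

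The mRNAs of H6pd and Slc37a4, which serve the NADPH supply of Hsd11b1 in the endoplasmic reticulum, were lower in replicate 1. H6pd takes glucose-6-phosphate that Slc37a4 carries into the endoplasmic reticulum. Slc37a4 was at 7.87 TPM in replicate 1, against 31.7 TPM in replicate 2, with a log2 ratio of -2.65, so Hsd11b1, H6pd and Slc37a4 were all lower in replicate 1, beside the liver list at 29.4 and 21310 TPM, whose part was not tested. The cytosolic NADPH enzymes differed less. Me1 was at 403 TPM in replicate 1, against 294 TPM in replicate 2 (log2 ratio 0.23), Idh1 at 133 and 134 TPM (-0.26, or 0.11 with spike-in totals) and Pgd at 93.5 and 83.8 TPM (-0.07, or 0.30 with spike-in totals). Of the 7 genes of this list 3 passed as higher and 3 as lower, and with spike-in totals 6 as higher and Slc37a4 alone as lower. Over all genes tested the shares were 17.6% and 21.3%, and with spike-in totals 53.3% and 10.8%.

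The targets of the mineralocorticoid receptor known from the kidney tubule were in part at or near 0 counts. Of 12, 6 were detected. Fxyd4 and Kcnj1, of the kidney's salt transport, had 0 counts in both libraries. Scnn1b and Scnn1g, subunits of the epithelial sodium channel, had 2 and 1 counts in replicate 1, against 1 and 2 counts in replicate 2. The remaining subunit in the list, Scnn1a, had 31 counts (0.27 TPM) in replicate 1, against 197 counts (1.71 TPM) in replicate 2, with a log2 ratio of -2.92 (adjusted p = 3.46e-36 in the exact binomial test). Broadly expressed genes of the list were present: the kinase Wnk1 was at 60.8 TPM in replicate 1, against 47.2 TPM in replicate 2, and the sodium pump subunit Atp1b1 at 22.6 and 22.05 TPM. Nedd4l, the ubiquitin ligase that Sgk1 inhibits, was at 8.67 TPM in replicate 1, against 15.4 TPM in replicate 2, with a log2 ratio of -1.03 (-0.67 with spike-in totals). Scnn1a and Nedd4l were lower in replicate 1, as the liver list was (29.4 and 21310 TPM), whose part was not tested. Of the 8 tested, 4 passed as higher and 2 as lower, where 17.6% and 21.3% of all genes tested did.

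Errfi1 acts on the receptors of the ErbB family, of which Egfr and Erbb3 passed as lower in replicate 1, as Errfi1 did, and Erbb2 did not pass. Erbb4 passed as lower by its counts (35 in replicate 1, against 68 in replicate 2), but it was below detection and its TPM ran the other way (0.33 and 0.26 TPM). Egfr, its best known target, was at 3.37 TPM in replicate 1, against 67.2 TPM in replicate 2, with a log2 ratio of -4.32. Erbb3 was at 0.95 and 13.1 TPM, with a log2 ratio of -4.02. Egfr and Erbb3 are known to be abundant in liver, whose list was at 29.4 TPM in replicate 1, against 21310 TPM in replicate 2, and the part of liver transcripts in these differences was not tested. Nedd4 (142 TPM in replicate 1, against 112 TPM in replicate 2) and Foxo3, a transcription factor that Sgk1 phosphorylates (18.2 and 13.9 TPM), had log2 ratios of 0.08 and 0.20. Of the 11 kinase and ErbB genes 4 passed as higher and 5 as lower in replicate 1, where 17.6% and 21.3% of all genes tested did.

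The axis around the members was read at its adrenal end. Mc2r, the corticotropin receptor, was at 93.8 TPM in replicate 1, against 60.8 TPM in replicate 2, and its accessory protein Mrap at 165 and 78.6 TPM. Their log2 ratios of 0.39 and 0.85 had the direction of Sgk1 and Tsc22d3 and of the cortex list, which itself includes Mc2r. Serpina6, the corticosteroid carrier of plasma that liver makes, was at 0.31 TPM in replicate 1, against 43.2 TPM in replicate 2, with a log2 ratio of -7.35. Crh, the hypothalamic releasing hormone, had 1 count in each library.

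**Figure D5:**
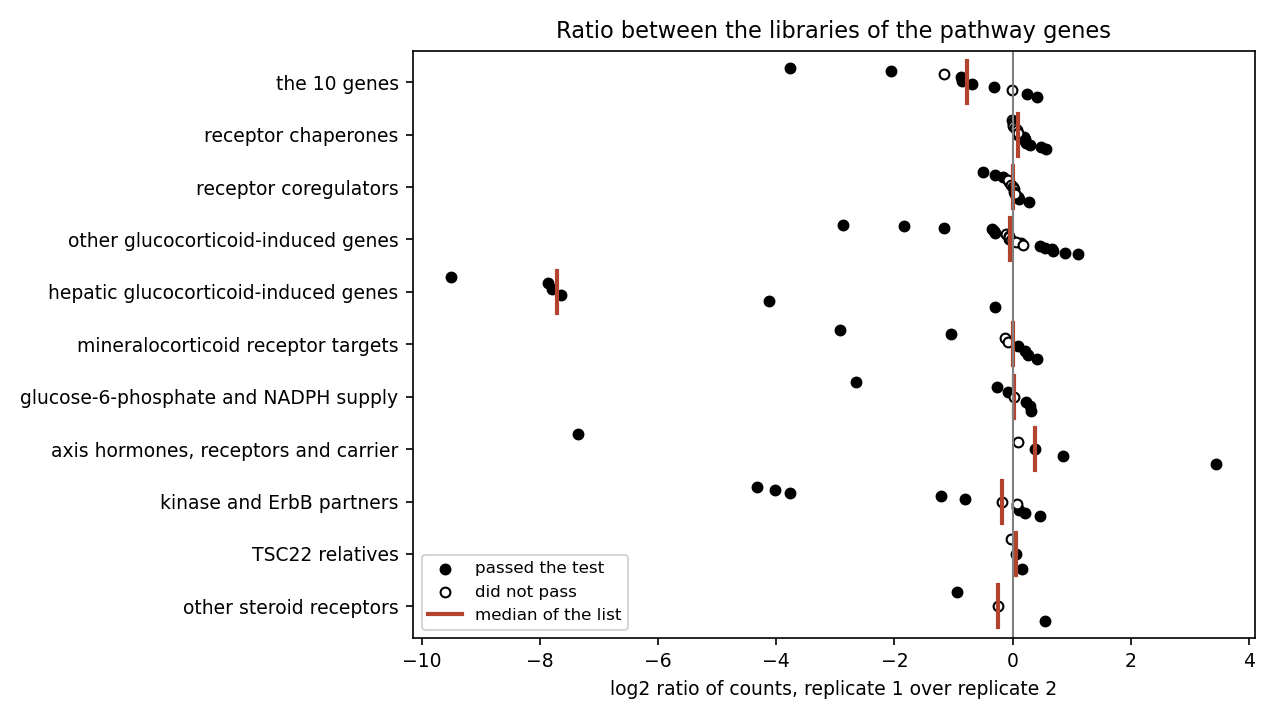
Log2 ratio of counts, replicate 1 over replicate 2 (TMM scaling), of each tested gene of the 10 members and of 10 pathway lists, filled where the exact binomial test passed and open where it did not, with a red bar at each list's median. The chaperones and coregulators lie close to 0, and the hepatic list lies far to the left with a median of -7.71.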

How the data were processed

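Per the deposited text files, both quantifications used mm10 and annotation M21, the first from a transcriptome alignment and the second from reads and an index (tools and versions: not given in the sources used here). The deposited gene tables hold expected counts and TPM by the authors, and the transcript tables the percent of gene TPM per transcript and, for the second quantification, estimated counts and TPM, per the file headers. TPM is relative to all listed sequences. Spike-ins held 0.839% and 0.915% of counts, and entries that name no gene held 8 and 6.73 counts and stayed out.

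Counts were rounded. Genes with at least 10 counts in total were tested by an exact two-sided binomial test (p is 2 times the smaller tail) against TMM library sizes (edgeR 4.0.16, R 4.3.3, factors 1.09 and 0.920), with Benjamini-Hochberg adjustment over all genes and a threshold of 0.05, and checked on simulated data. With 1 library a side there are no residual degrees of freedom. Alternatives were total counts, spike-in totals, size factors of DESeq2 1.42.0, no count filter and the second quantification. A further alternative was TMM over nuclear protein-coding genes without the genes of the liver, muscle and fat lists. Intervals are 95%, Clopper-Pearson for ratios and exact Poisson for TPM.

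Members and 10 pathway and 11 marker lists were chosen with earlier results of these data known. Named were all members, the 3 genes of highest mean TPM in each pathway list, those that passed and differed 2-fold at a mean of at least 5 TPM, and the 2 highest of each marker list as needed; Scnn1a, Scnn1b, Scnn1g, Fxyd4, Kcnj1, Crh, Erbb2 and Erbb4 were named after their values were seen. A few list genes selected this way are not reported here. No search for genes of like pattern was made, since 2 libraries give none.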

Additional observations from a re-analysis of the deposited data

How the results depend on the processing

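No paired analysis was possible because there is 1 group, and no groups share replicate numbers. Of the 60 ratios of members under alternative settings 56 kept their side of the threshold. All of these kept their direction except Fkbp4 in the second quantification (0.01, against -0.02), which passed in neither. The ratios that changed sides were of Fkbp4 (total counts 0.23, spike-in totals 0.35, against -0.02) and Fkbp5 (total counts -0.07, spike-in totals 0.057, against -0.31). These scalings differ from TMM by construction. All genes that passed numbered 12696 with spike-in totals, against 7709. The log2 ratio of Nr3c1 over Nr3c2 was 2.97 in the second quantification and 2.99 from counts without length scaling, against 2.52. That of H6pd over Hsd11b1 was 1.39 from counts, which ignore that H6pd transcripts are longer, and -0.80 to 0.33 with 1 library left out, against -0.24. That of Fkbp5 over Fkbp4 was -1.07 from counts, against -1.48. Leading transcripts depended on the quantification: the share of Hsd11b1-205 was 71.5% in the first and 3.67% in the second, and of H6pd-202 69.1% and 23.4%; the cause was not tested. Depth limits Hsd11b2, at 8 and 15 counts. Whether counting used the strand is not given in the sources used here.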

Other observations

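Relatives of the members were also measured. Of the steroid receptors of other ligands, Esr1, an oestrogen receptor, was at 4.06 TPM in replicate 1, against 6.20 TPM in replicate 2, with a log2 ratio of -0.94 (-0.58 with spike-in totals), lower in replicate 1 as the liver list was, whose part was not tested, and Pgr, the progesterone receptor, at 0.04 and 0.06 TPM. Tsc22d1, a relative of Tsc22d3, was at 405 TPM in replicate 1, against 331 TPM in replicate 2, the most abundant of the family here, with a log2 ratio of 0.05. Tsc22d4 averaged 25.3 ± 6.07 TPM (SD, n = 2), and Tsc22d2 was at 10.2 and 8.65 TPM in replicate 1 and replicate 2.

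Transcripts annotated with a retained intron held 14.98% of Sgk1 TPM in replicate 1, against 20.7% in replicate 2, and 16.5% and 20.2% in the second quantification. The same class held 1.43% of Fkbp4 in replicate 1, against 1.06% in replicate 2. Transcripts with no annotated coding sequence or retained intron held 23.5% of Fkbp5 TPM in replicate 1, against 16.6% in replicate 2, and 31.9% and 29.3% in the second quantification.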
